A study of Mus musculus with 8 samples.

Results

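The genes described here are 10 members of the cytokine signalling pathway that runs through Janus kinases and STAT transcription factors: the kinase gene Jak2, the transcription factor genes Stat3, Stat4, Stat5a, Stat5b and Stat6, and the inhibitor genes Socs1, Socs2, Socs3 and Cish. They were chosen by name, and every summit of open chromatin within the gene span or 50 kb on either side was taken, in the mouse build GRCm38 (mm10). Stat5b, Stat5a and Stat3 lie next to each other on chromosome 11 and were treated as 1 locus, so the 10 genes gave 8 windows. Of 112443 sites found in the whole data set, 191 lay in these windows. A site is a place where summits of any of the 8 libraries follow each other within 250 bp.

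Conventional dendritic cells were sorted from mouse spleen and their open chromatin was profiled by ATAC-seq, an assay in which a transposase cuts accessible DNA and tags the cuts for sequencing. The 8 libraries formed 4 groups of 2: type 2 cells (cDC2, sorted as XCR1-CD11b+) with a floxed Hdac1 gene and Mx1-Cre (KO), cDC2 with the floxed gene and no Cre in the label (WT), type 1 cells (cDC1, sorted as XCR1+CD11b-) with Mx1-Cre (KO), and cDC1 with the floxed gene alone (WT). All cells were lineage-negative, CD11c+, MHCII+ and CD64-. All mice, WT included, had received poly I:C, an RNA mimic that switches on Mx1-Cre through interferon, 2 weeks before the sort. Mx1-Cre acts in many interferon-responsive cells and not in dendritic cells alone, and the labels do not give the mice's age or say whether the libraries of a group came from separate animals. The p-values therefore measure the spread between these libraries, which may be technical.

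Cytokine receptors without an enzyme of their own use Janus kinases such as JAK2 to phosphorylate STAT proteins, which then pair, enter the nucleus and bind DNA. Among the genes that STATs switch on are the SOCS genes and Cish, whose products bind receptors or kinases and dampen the same signal. In dendritic cells, STAT3 acts downstream of FLT3 ligand and interleukin 10, STAT5 downstream of GM-CSF, STAT6 downstream of interleukin 4 and STAT4 downstream of interleukin 12.

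The RefSeq promoter table (GRCm38.p6, 250 bases before to 50 after each annotated start) held 12 promoters for 9 of the 10 members. Socs2 had no entry. Of the 12, the 4 that hold the letters of a STAT or an interferon regulatory factor (IRF) motif are printed 5′ to 3′, because 3 of them belong to the feedback inhibitors; capitals mark the motif letters. The Cish promoter is at chr9:107296409-107296708 on the plus strand, that of Socs3 at chr11:117969317-117969616 on the minus strand, that of Socs1 at chr16:10785487-10785786 on the minus strand, and that of the second annotated Stat4 start at chr1:52007990-52008289 on the plus strand.
Cish: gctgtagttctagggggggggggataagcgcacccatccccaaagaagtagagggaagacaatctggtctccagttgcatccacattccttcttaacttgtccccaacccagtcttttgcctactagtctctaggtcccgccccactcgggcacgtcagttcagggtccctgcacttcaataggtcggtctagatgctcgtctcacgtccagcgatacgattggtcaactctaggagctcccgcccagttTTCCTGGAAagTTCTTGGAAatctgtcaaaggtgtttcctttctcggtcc
Socs3: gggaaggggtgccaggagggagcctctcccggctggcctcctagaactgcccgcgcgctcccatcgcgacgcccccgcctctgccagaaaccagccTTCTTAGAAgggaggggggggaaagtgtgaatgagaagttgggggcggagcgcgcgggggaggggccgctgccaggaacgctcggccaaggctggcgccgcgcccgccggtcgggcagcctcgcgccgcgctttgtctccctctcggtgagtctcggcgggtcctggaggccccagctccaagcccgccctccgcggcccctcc
Socs1: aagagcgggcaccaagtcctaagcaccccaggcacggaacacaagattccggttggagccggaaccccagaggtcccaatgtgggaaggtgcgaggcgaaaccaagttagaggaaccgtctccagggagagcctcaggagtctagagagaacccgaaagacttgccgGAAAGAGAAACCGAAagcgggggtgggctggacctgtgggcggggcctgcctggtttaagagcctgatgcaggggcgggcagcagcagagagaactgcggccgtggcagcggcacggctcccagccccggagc
Stat4, second start: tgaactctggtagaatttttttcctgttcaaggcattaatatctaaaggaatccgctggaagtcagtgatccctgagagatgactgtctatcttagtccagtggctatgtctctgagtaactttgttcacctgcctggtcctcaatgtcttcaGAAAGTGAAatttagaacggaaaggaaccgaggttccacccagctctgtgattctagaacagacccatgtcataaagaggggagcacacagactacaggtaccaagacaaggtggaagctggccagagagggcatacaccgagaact

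The STAT letters searched were TTCNNNGAA, which read the same on both strands. They occurred in 8.3% of all 32851 promoters of the table and in those of Cish and Socs3 among the members. Cish held 2 matches that did not overlap, the first beginning at the annotated start and the second 11 bases after it. Socs3 held 1, beginning 154 bases before the start. The IRF letters GAAANNGAA, searched on both strands, occurred in 8.56% of all promoters. Socs1 had 2 overlapping matches, beginning 83 and 77 bases before its start, and the second Stat4 promoter had 1, beginning 97 bases before the start. Neither the ETS letters GAGGAAGT nor the AP-1 letters TGANTCA, both searched on both strands, were in any of the 12 member promoters; they were in 3.2% and 7.81% of all promoters. A match of letters is a description and shows no binding.

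Summits lay close to the Cish letters in every library. The distance from the first Cish match to the nearest summit was 1 and 90 bp in cDC2 KO, 40 and 40 bp in cDC2 WT, 5 and 74 bp in cDC1 KO, and 52 and 0 bp in cDC1 WT. At Socs3 the nearest summit was 165 to 288 bp from the match over the 8 libraries, on the side of the gene. At the second Stat4 start it was 410 to 539 bp away. At Socs1 the libraries fell into 2 sets: the distance to the first IRF match was 58 to 86 bp in 4 libraries and 457 to 462 bp in the other 4, and both sets held libraries of both subsets.

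Each library is a list of summits with a peak score, and the lists held 69025 and 78296 summits in cDC2 KO, 66609 and 61737 in cDC2 WT, 74963 and 96031 in cDC1 KO, and 76022 and 77585 in cDC1 WT. No read counts come with them, so the depth is unknown and no limit can be set for what went uncalled. To make lists comparable, the 61737 best-scored summits of each library were kept. The subset labels were checked against marker genes: the summed summits of 10 cDC1 marker windows were 104 to 112 in cDC2 and 137 to 143 in cDC1, and those of 10 cDC2 marker windows 103 to 114 in cDC2 and 79 to 94 in cDC1. Cd8a, a coreceptor gene that marks spleen cDC1, had 1 to 3 summits in cDC2 against 8 to 11 in cDC1. By limma over all genes, described below, 5 cDC1 markers fell and 4 cDC2 markers rose in cDC2. Clec9a, a cDC1 receptor gene, went the other way (13 in cDC2 and 9.25 in cDC1 on average), with an adjusted p of 0.0451 that was lost without any 1 library (0.0511 to 0.143) and a direction that reversed when only the 30868 best summits of each list were kept. Xcr1 and Itgam, the genes of the surface markers XCR1 and CD11b that separated the subsets in the sort, did not pass by limma. Xcr1 averaged 4.5 summits in cDC2 and 5.25 in cDC1 (adjusted p = 0.435), and Itgam averaged 11.75 in both. Marker windows of T, B and NK cells, plasmacytoid dendritic cells, and monocytes and macrophages overlapped between the subsets in their sums, none of which was 0. In cDC2 1 gene each of the B cell, plasmacytoid and monocyte lists fell (Ms4a1, Pacsin1 and Ly6c2), and the part of such cells in the results below was not tested. The Hdac1 window held 8 to 13 summits per library and its span 0 or 1, which cannot show whether the gene was deleted.

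The number of summits around the 10 genes differed between cDC2 and cDC1 by less than the spread of the libraries. The 8 windows together held 119 and 116 summits in cDC2 KO, 122 and 102 in cDC2 WT, 113 and 109 in cDC1 KO, and 114 and 116 in cDC1 WT. The subset means were 114.75 ± 8.85 in cDC2 and 113 ± 2.94 in cDC1 (SD, n = 4 each), and the ranges overlapped.

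Jak2, the kinase gene (chromosome 19, 29251803 to 29313095), had 16 and 17 summits in its window in cDC2 KO, 18 and 16 in cDC2 WT, 20 and 15 in cDC1 KO, and 18 and 19 in cDC1 WT. The groups overlapped, and the lowest and the highest value both came from cDC1 KO. Of its 27 sites, 20 had Jak2 as the nearest gene.

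The locus of Stat5b, Stat5a and Stat3 (chromosome 11, 100780731 to 100939594) had 24 and 21 summits in cDC2 KO, 21 and 17 in cDC2 WT, 20 and 22 in cDC1 KO, and 23 and 20 in cDC1 WT. It was the richest of the 8 windows, with 35 sites, 13 of them nearest to other genes. Stat4 (chromosome 1, 51987106 to 52107189) had 20 and 15 summits in cDC2 KO, 21 and 14 in cDC2 WT, 16 and 17 in cDC1 KO, and 14 and 21 in cDC1 WT. The 2 libraries of a group differed by as much as 7 summits at Stat4, more than the subset means did. Stat6 (chromosome 10, 127642955 to 127660987) had 17 and 20 summits in cDC2 KO, 19 and 17 in cDC2 WT, 16 and 17 in cDC1 KO, and 21 and 15 in cDC1 WT. Its 30 sites were mostly those of neighbours, since only 8 were nearest to Stat6.

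Among the inhibitors, Socs1 (chromosome 16, 10783808 to 10785536) had 9 and 10 summits in cDC2 KO, 12 and 10 in cDC2 WT, 10 and 8 in cDC1 KO, and 9 and 11 in cDC1 WT. Socs2 (chromosome 10, 95383903 to 95417321) had 7 and 8 in cDC2 KO, 8 and 7 in cDC2 WT, 7 and 6 in cDC1 KO, and 7 and 7 in cDC1 WT, the fewest of the 8 windows. The SOCS1 and SOCS3 proteins can inhibit the kinase itself, while SOCS2 and CISH act mainly at growth hormone and related receptors. Socs3 (chromosome 11, 117966079 to 117970336) had 14 and 13 summits in cDC2 KO, 13 and 11 in cDC2 WT, 14 and 13 in cDC1 KO, and 12 and 13 in cDC1 WT. Cish (chromosome 9, 107296659 to 107302784) had 12 and 12 in cDC2 KO, 10 and 10 in cDC2 WT, 10 and 11 in cDC1 KO, and 10 and 10 in cDC1 WT. At Cish both cDC2 KO libraries had 2 summits more than both cDC2 WT libraries, a difference that did not pass by limma, described below (adjusted p = 0.970).

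**Figure D1:**
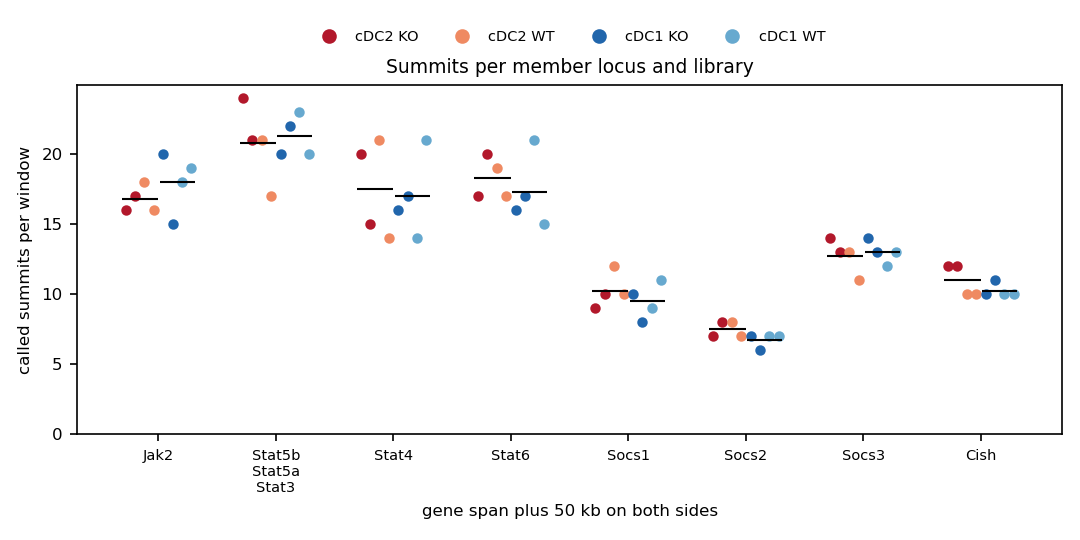
Called summits per window (gene span plus 50 kb on both sides, vertical axis) for the 8 member loci, 1 point per library, with cDC2 KO, cDC2 WT, cDC1 KO and cDC1 WT from left to right and black lines at the subset means. The subsets overlap at every locus, from Socs2 with 6 to 8 summits to the Stat5b-Stat5a-Stat3 locus with 17 to 24.

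None of the 8 loci differed between cDC2 and cDC1 in the number of summits. The test was limma on log2(summits + 1) over the 17722 genes that averaged 1 summit or more per library, with Benjamini-Hochberg adjustment and a threshold of 0.05; it called 11.8% of all genes, 1035 higher and 1051 lower in cDC2. The log2 difference, cDC2 minus cDC1, was -0.09 ± 0.13 for Jak2 (SE, adjusted p = 0.699), -0.04 for the Stat5b-Stat5a-Stat3 locus, 0.03 for Stat4, 0.08 for Stat6, 0.10 for Socs1, -0.03 for Socs3, 0.09 for Cish and 0.13 ± 0.12 for Socs2 (SE, adjusted p = 0.533). The median of the 8 was 0.06, beside 0 over all genes. The 95% intervals reached from -0.38 (Jak2) to 0.42 (Stat4), so differences within those bounds could not be told from 0. With all deposited summits in place of equal lists, the median over all genes moved to -0.16 and the calls to 245 higher and 2078 lower, and Stat4, Stat6, Socs1 and Socs2 turned negative, still uncalled.

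Within the chromosome 11 locus the counts of the 3 genes did not all lean one way, but the genes were not tested against each other. The Stat3 span held 6 and 5 summits in cDC2 KO, 5 and 4 in cDC2 WT, 8 and 7 in cDC1 KO, and 9 and 8 in cDC1 WT, so every cDC2 library had fewer than every cDC1 library. The Stat5b span held 6 and 7 in cDC2 KO, 7 and 6 in cDC2 WT, 4 and 6 in cDC1 KO, and 5 and 5 in cDC1 WT. When each summit was given to its nearest gene and the 3 genes were kept apart, an alternative added after the data were seen, limma called 10.4% of 13986 genes, and Stat3 fell in cDC2 (-0.59 ± 0.18 on the log2 scale, SE, adjusted p = 0.0446). That call was lost, with adjusted p between 0.0567 and 0.131, without any one of cDC2 KO 1, cDC2 KO 2, cDC2 WT 2, cDC1 KO 1, cDC1 KO 2, cDC1 WT 1 or cDC1 WT 2. It passed without cDC2 WT 1 (adjusted p = 0.0362). Stat5b (0.26, adjusted p = 0.428) and Stat5a (0.29, adjusted p = 0.435) did not pass.

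The loss of Hdac1, a histone deacetylase gene, was tested within each subset. In cDC2, none of the 8 loci differed between KO and WT by limma (0.00564% of genes called, 1 gene; none of the 8 had an unadjusted p under 0.05). The log2 differences, KO minus WT, ran from -0.19 for Socs1 (95% interval -0.61 to 0.24, adjusted p = 0.985) to 0.24 for Cish (-0.12 to 0.60, adjusted p = 0.970). In cDC1 none of the 8 differed either (0.0169% of genes, 3 genes; none at an unadjusted p under 0.05), and the differences ran from -0.14 for Socs1 (-0.56 to 0.29) to 0.10 for Socs3 (-0.28 to 0.48). The genotype effect itself did not differ between cDC2 and cDC1 at any of the 8 loci (0% of genes; 738 genes and none of the 8 at an unadjusted p under 0.05), with the largest difference of effects at the Stat5b-Stat5a-Stat3 locus (0.27, -0.31 to 0.84).

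Sites present in every library made up a similar share of the member windows and of the genome. A summit was present in all 8 libraries at 59 sites (30.9%), beside 26.4% of all sites, and in a single library at 44 (23.0%), beside 24.3%. Sharing went with position. Of the 24 sites that reached to within 500 bp of an annotated start, 20 were present in all 8 libraries (83.3%). The share was 20 of 103 sites inside a gene (19.4%) and 19 of 64 between genes (29.7%). Starts came from the promoter table alone, so a site at a start missing from it, such as that of Socs2, would count as inside or between genes. By window, the share present in all 8 was lowest at Stat4 (6 of 31) and Stat6 (7 of 30) and highest at Cish (7 of 16) and Jak2 (11 of 27). The overlap of 2 libraries, as the Jaccard index of their member sites, averaged 0.692 between genotypes of one subset, 0.674 within a group and 0.587 between subsets; over all sites it was 0.659, 0.673 and 0.518. These pairs share libraries, so the values are a description.

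Of the 12 annotated member starts, 10 had a summit within 500 bp in all 8 libraries, Socs1 at 2 positions. At the first Stat5a start the nearest summit was 178 to 707 bp away, within 500 bp in 4 libraries, and at the first Stat4 start it was at least 9960 bp away. Ranks count from 1 for the best score of a library, with 61737 the last. The site at the Stat3 start ranked 2247 and 1613 in cDC2 KO, 1790 and 5230 in cDC2 WT, 1570 and 1012 in cDC1 KO, and 704 and 1704 in cDC1 WT. It was the best of the member starts by median rank, and it ranked ahead of the Jak2 start in 7 of 8 libraries. The Jak2 start ranked 1458 and 3592 in cDC2 KO, 4211 and 5286 in cDC2 WT, 3728 and 1905 in cDC1 KO, and 3758 and 4254 in cDC1 WT. The second Stat5a start followed, at 4633 to 8741, behind Jak2 and ahead of Stat6 in all 8 libraries.

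After Stat5a the order was less clear. The Stat6 start ranked 6378 to 12978, that of Cish 9253 to 20506, that of Socs3 8338 to 22636 and the main Stat5b start 8069 to 18920, and each neighbouring pair of these kept its order in only 4 or 5 of 8 libraries. Socs1 had its summit either 3 bp before the annotated start, at ranks 4963 to 8119 (cDC2 WT 2, both cDC1 KO libraries and cDC1 WT 1), or 384.5 bp after it, at ranks 5750 to 8496 (both cDC2 KO libraries, cDC2 WT 1 and cDC1 WT 2). The first position held 1 cDC2 and 3 cDC1 libraries, and the second 3 cDC2 and 1 cDC1. The 2 positions split the groups cDC2 WT and cDC1 WT, so neither subset nor genotype separated them fully. Whether position goes with subset was not tested. The site near the first Stat5a start was the weakest of the start sites, at ranks 21238 to 61471. Its summit lay within 500 bp of that start in only 4 libraries.

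At Stat4 the nearest summit lay 321 to 450 bp from the second annotated start over the 8 libraries. No library had a summit in the promoter window of either Stat4 start. The site 386 bp after the second start (chromosome 1, 52008561 to 52008690) ranked 6494 and 18783 in cDC2 KO, 6988 and 7079 in cDC2 WT, 14409 and 30357 in cDC1 KO, and 22387 and 14579 in cDC1 WT. All cDC2 libraries other than cDC2 KO 2 were ahead of every cDC1 library. Ranks were turned into normal scores, where a higher score is a better rank, and tested by limma over the 29645 sites present in all 8 libraries. At this Stat4 site the difference was 0.59 (95% interval 0.08 to 1.10) and did not pass (adjusted p = 0.0970). At the main Stat5b start it was -0.37 (-0.66 to -0.09, adjusted p = 0.0681), and none of the 10 testable member start sites passed.

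**Figure D2:**
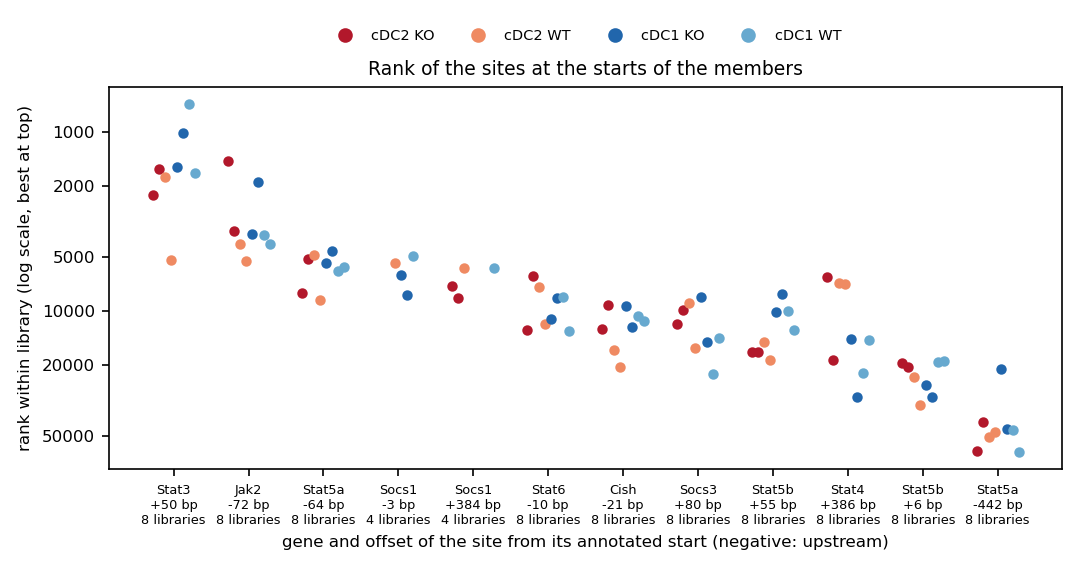
Rank of the site at each annotated start of the members within each library (vertical log axis, best at the top), 1 point per library in the order cDC2 KO, cDC2 WT, cDC1 KO and cDC1 WT, with the offset from the start and the number of libraries beneath. Stat3 and Jak2 lie at the top, the 2 Socs1 positions are each filled by 4 libraries, and the site near the first Stat5a start lies at the bottom.

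The site with the best median rank among those in all 8 libraries was the Stat3 start in the chromosome 11 window and no member's own start in the other 7. The Socs1 start could not be among these, since its summits formed 2 sites of 4 libraries each. In the Stat6, Jak2 and Cish windows it was at the start of a neighbouring gene, and Nemp1, Plgrkt and Hemk1 were the nearest gene spans. In the Socs2 window it lay outside the gene, 11753 bp from the nearer end of the span (chromosome 10, 95372121 to 95372150; ranks 2275 to 6042). The best Socs3 window site lay inside Pgs1 (ranks 5961 to 19731). The best Socs1 window site shared by all libraries overlapped the edge of the Rmi2 span (ranks 8804 to 19563). It ranked behind the summit at the Socs1 start in all 8 libraries (ranks 4963 to 8496). In the chromosome 11 and Jak2 windows the first place was close. The Stat3 start had a median rank of 1658.5 (704 to 5230), beside 1978 (298 to 4321) for the start of its neighbour Rab5c. The Plgrkt start had a median rank of 3663.5 (2330 to 6470), beside 3743 (1458 to 5286) for the Jak2 start.

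By rank, 9 of the 59 testable member sites differed between cDC2 and cDC1 (15.3%), 5 higher and 4 lower in cDC2, beside 19.2% of all 29645 sites. The median difference over the 59 was -0.11, beside 0.03 over all sites. Of the 9, 3 had a member as the nearest gene, Socs1 for 2 of them and Socs3 for the other. The 3 of the 9 that are described first were called with each library left out in turn.

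The largest called difference lay inside Kcnh4, a potassium channel gene, in the chromosome 11 window (chromosome 11, 100757695 to 100757825; 2.02 kb after the Kcnh4 start). Its ranks were 11471 and 7814 in cDC2 KO, 17400 and 12066 in cDC2 WT, 43651 and 50203 in cDC1 KO, and 33847 and 28109 in cDC1 WT. Every cDC2 library was ahead of every cDC1 library, and the difference in normal score was 1.23 ± 0.15 (SE, limma adjusted p = 0.00414).

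The Socs3 site that differed lay 5.74 kb after the Socs3 start, beyond the end of the gene (chromosome 11, 117963577 to 117963676). It ranked 22627 and 21353 in cDC2 KO, 24131 and 26021 in cDC2 WT, 8428 and 13047 in cDC1 KO, and 7229 and 9953 in cDC1 WT. Every cDC1 library was ahead, with a difference of -0.72 ± 0.13 (SE, limma adjusted p = 0.0116). The site at the Socs3 start itself showed 0.17 (95% interval -0.22 to 0.55).

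In the Cish window a site inside Mapkapk3, a kinase gene of the stress pathway (chromosome 9, 107280268 to 107280707), ranked 13969 and 14817 in cDC2 KO, 15617 and 16085 in cDC2 WT, 30981 and 29809 in cDC1 KO, and 25175 and 28419 in cDC1 WT. Every cDC2 library was ahead (0.60 ± 0.12, SE, limma adjusted p = 0.0137). With all deposited summits the adjusted p was 0.0681.

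The Socs1 window held 3 called sites in different directions. The site 0.945 kb before the Socs1 start (chromosome 16, 10786460 to 10786503) ranked 25243 and 22957 in cDC2 KO, 20158 and 23535 in cDC2 WT, 34531 and 38954 in cDC1 KO, and 28199 and 34586 in cDC1 WT, better in every cDC2 library (0.46, limma adjusted p = 0.0430). The site 15.7 kb on the other side, beyond the gene's end (10769829 to 10769913), ranked 36893 and 45050 in cDC2 KO, 26308 and 27953 in cDC2 WT, 19876 and 23939 in cDC1 KO, and 17235 and 21062 in cDC1 WT, better in every cDC1 library (-0.57, adjusted p = 0.0262). The third lay inside Clec16a (10741277 to 10741327), at ranks 38224 to 56522 in cDC2 and 19803 to 39681 in cDC1, with an overlap (-0.95, adjusted p = 0.0444). The first call was lost without any 1 of the 8 libraries (adjusted p 0.0684 to 0.125) and with all deposited summits (0.261). The second was lost (0.0542 to 0.0832) without any one of cDC2 KO 2, cDC2 WT 1, cDC2 WT 2, cDC1 KO 1, cDC1 WT 1 or cDC1 WT 2, and the third (0.0573 to 0.130) without any 1 library other than cDC2 KO 1.

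Another 2 lay nearest to neighbours of Jak2 and Stat6. A site inside Plgrkt, a plasminogen receptor gene in the Jak2 window (chromosome 19, 29355657 to 29355726), ranked 15031 to 25097 in cDC2 and 25228 to 39915 in cDC1, with no overlap (0.56, adjusted p = 0.0341). The site at the start of Nab2, a corepressor gene in the Stat6 window (chromosome 10, 127666683 to 127666923), ranked 14591 to 42192 in cDC2 and 10663 to 15371 in cDC1, with an overlap (-0.61, adjusted p = 0.0442). Both calls were lost without any 1 library other than cDC2 WT 1, with adjusted p of 0.0651 to 0.0972 at Plgrkt and 0.0708 to 0.116 at Nab2. With all deposited summits the Plgrkt adjusted p was 0.146.

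**Figure D3:**
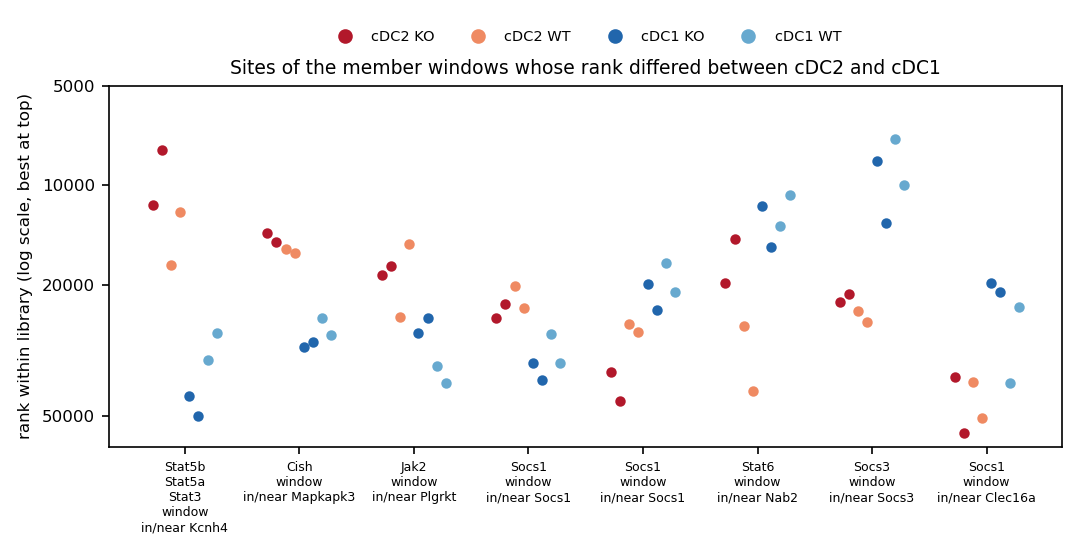
Rank within each library (vertical log axis, best at the top) of 8 of the 9 sites in member windows called by limma between cDC2 and cDC1, 1 point per library in the order cDC2 KO, cDC2 WT, cDC1 KO and cDC1 WT, named by window and nearest gene. The 4 sites on the left are better ranked in cDC2 and the 4 on the right in cDC1, and the subsets overlap at Nab2 and Clec16a.

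No member site differed in rank by genotype. In cDC2 limma called none of the 59 (0% of all sites; 5 of the 59 and 2151 of all sites had an unadjusted p under 0.05). In cDC1 it called none of the 59 (0.00337% of all sites; 4 of the 59 and 2291 of all sites at an unadjusted p under 0.05). For the difference of the genotype effects it called none (0% of all sites; 4 of the 59 and 1382 of all at an unadjusted p under 0.05).

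Sites without a summit in some library have no rank and were described by presence. A summit in all 4 cDC2 libraries and in no cDC1 library was found at 5 member sites (2.62% of 191), beside 2.42% of all sites. The reverse was found at 3 (1.57%), beside 4.33%. All of the 5 and 2 of the 3 lay inside a gene, and none was at a start. With the 30868 best summits of each list, none of the 5 and 2 of the 3 kept the pattern.

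Both Stat4 sites found in cDC2 alone lay inside the gene, close to its second start. The first was 3.17 kb after it (chromosome 1, 52011409 to 52011417) and ranked 31746 and 38112 in cDC2 KO and 43898 and 35881 in cDC2 WT. The second was 4.70 kb after it (52012922 to 52012949) and ranked 52616 and 38031 in cDC2 KO and 36730 and 50833 in cDC2 WT. Even in the full deposited lists the nearest cDC1 summit was 2719 and 4232 bp away. The Stat4 window thus held 2 of the 5 sites found in cDC2 alone and none of the 3 found in cDC1 alone. Other sites inside Stat4 came close to the rule on either side. Those at 51997108 to 51997271 and 52077879 to 52077960 had a summit in 4 cDC1 libraries and 1 cDC2 library. Those at 51998723 to 51998779 and 52055876 to 52056143 had a summit in 4 cDC2 libraries and 1 cDC1 library.

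**Figure D4:**
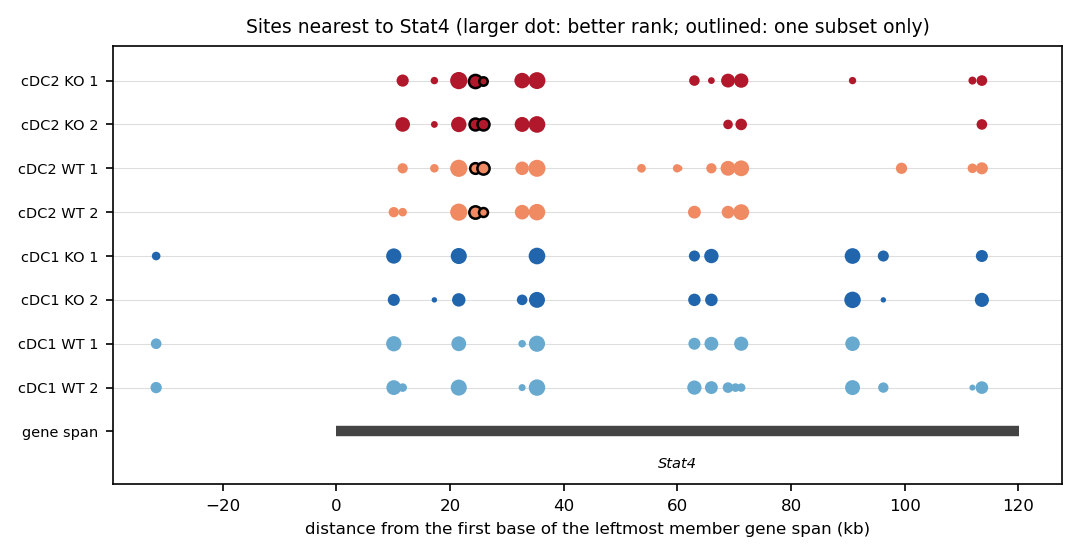
Sites with a summit in each library (rows, cDC2 KO at the top, then cDC2 WT, cDC1 KO and cDC1 WT) along Stat4, for the sites that have it as the nearest gene, as distance in kb from the first base of the Stat4 span; larger dots are better ranks and the grey bar is the gene span. The outlined dots, in the 4 cDC2 rows alone, are the 2 sites 3.17 and 4.70 kb after the second Stat4 start.

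Stat5b had 1 site of this kind, 8.39 kb after its main start (chromosome 11, 100842147 to 100842229), at ranks 55360 and 52115 in cDC2 KO and 34180 and 44576 in cDC2 WT. The nearest cDC1 summit in the full lists was 764 bp away. A Stat6 site (chromosome 10, 127655270 to 127655395) ranked 32314 and 55496 in cDC2 KO and 34650 and 46227 in cDC2 WT, but 2 cDC1 libraries had a summit there among their lower-scored ones. The fifth lay inside Mapkapk3 in the Cish window (chromosome 9, 107264068 to 107264176), at ranks 25639 and 22319 in cDC2 KO and 22518 and 39816 in cDC2 WT, 3041 bp from the nearest cDC1 summit.

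Of the sites found in cDC1 alone, that inside Stat6 (chromosome 10, 127658231 to 127658276) had the best ranks, 17266 and 11711 in cDC1 KO and 16166 and 16194 in cDC1 WT, and no cDC2 summit within 2836 bp in the full lists. Stat6 thus carried 1 site of each kind inside its span. The Socs2 site (chromosome 10, 95365570 to 95365630), 18.3 kb outside the gene, ranked 21092 and 34308 in cDC1 KO and 19922 and 22663 in cDC1 WT, and 2 cDC2 libraries had a lower-scored summit there. The third lay inside Plgrkt in the Jak2 window (chromosome 19, 29356639 to 29356736), at ranks 28468 and 27170 in cDC1 KO and 18137 and 15416 in cDC1 WT, 917 bp from the nearest cDC2 summit. The Plgrkt site that ranked better in cDC2 is its neighbour.

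**Figure D5:**
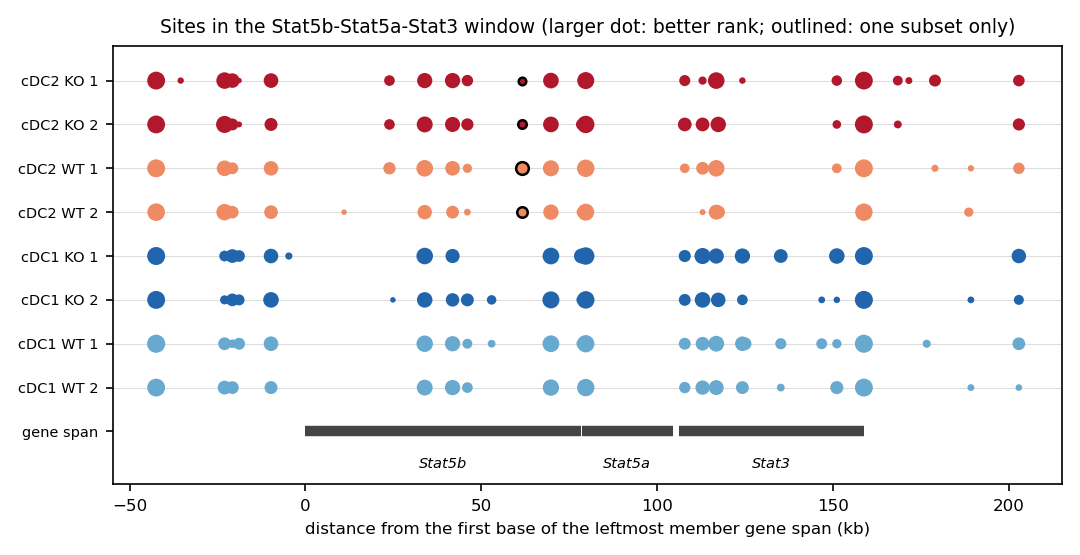
Sites with a summit in each library (rows, cDC2 KO at the top, then cDC2 WT, cDC1 KO and cDC1 WT) along the window of Stat5b, Stat5a and Stat3, as distance in kb from the first base of the Stat5b span; larger dots are better ranks and grey bars are gene spans. The outlined dots inside Stat5b are the site found in the 4 cDC2 libraries alone, and the Stat3 span holds 7 to 9 dots in the cDC1 rows, against 4 to 6 in the cDC2 rows.

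Presence by genotype gave few sites. In cDC2, 3 member sites had a summit in both KO and in neither WT library (1.57%, beside 2.32% of all sites) and none in both WT and neither KO library (beside 1.92%). The 3 were inside Hcrt in the chromosome 11 window (100761837 to 100761916; ranks 61034 and 59922 in cDC2 KO), 9.60 kb before the Stat3 start (100949115 to 100949155; ranks 47328 and 54362) and 6.95 kb before the Socs3 start (117976244 to 117976388; ranks 53051 and 51456). All 3 were in the weaker part of the lists, and those at Hcrt and Socs3 were also present in 3 cDC1 libraries. In cDC1, 2 member sites had a summit in both KO and neither WT library (1.05%, beside 2.17%) and in no cDC2 library, 19.8 kb beyond the Socs3 start (117949485 to 117949571; ranks 57923 and 48597 in cDC1 KO) and inside Pgs1 in the Socs3 window (118000762 to 118000797; ranks 47174 and 47935). Another 2 had a summit in both WT and neither KO library of cDC1 (1.05%, beside 2.28%) and in all 4 cDC2 libraries as well, inside Stat4 (chromosome 1, 52058298 to 52058356; ranks 26124 and 52401 in cDC1 WT) and inside Lrp1 in the Stat6 window (chromosome 10, 127604650 to 127604720; ranks 35536 and 40052). In the full lists all 4 cDC1 libraries had a summit at the Stat4 and Pgs1 sites and 3 of 4 at the Lrp1 and Socs3 sites. None of these 7 sites kept its pattern with the 30868 best summits.

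Of 55 other genes of the pathway (kinases, STATs, inhibitors, receptors and STAT target genes), 54 were tested for the number of summits and 4 differed between cDC2 and cDC1 by limma (7.41%, beside the 11.8% above), 2 higher and 2 lower in cDC2; the median over the 54 was 0.02. Csf2ra, a GM-CSF receptor gene, had no summit in any list. Osmr, the oncostatin M receptor gene, rose in cDC2, with 3, 3, 3 and 4 summits against 1, 1, 2 and 1 in cDC1 (log2 difference 0.93 ± 0.16, SE, adjusted p = 0.00642). Gbp2, an interferon-induced GTPase gene, rose with 7, 9, 8 and 8 against 6, 4, 4 and 5 in cDC1 (0.66 ± 0.15, adjusted p = 0.0210). Il15ra and Il2ra, the alpha chain genes of the interleukin 15 and interleukin 2 receptors, fell in cDC2. Il15ra had 9, 8, 9 and 9 summits in cDC2 and 13, 12, 15 and 14 in cDC1 (-0.57 ± 0.12, adjusted p = 0.0139), and Il2ra 11, 10, 11 and 11 in cDC2 and 14, 14, 16 and 15 in cDC1 (-0.42 ± 0.12, adjusted p = 0.0408). The 2 genes are neighbours, so their windows share summits.

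Osmr and Il15ra stayed called with each library left out in turn, Osmr being lost with all deposited summits (adjusted p = 0.351) and Il15ra when each summit went to the nearest gene (0.0548). Il2ra was lost without any 1 of the 8 libraries (0.0765 to 0.120), with no filter on low genes (0.0507), with nearest gene only (-0.23, adjusted p = 0.517) and in a window of 10 kb (-0.23, adjusted p = 0.497). Gbp2 was lost without cDC2 KO 2, cDC1 KO 2 or cDC1 WT 1 (0.0556 to 0.0613) and with all deposited summits (0.34, adjusted p = 0.202). The 5 other kinase and STAT genes, the 4 other SOCS genes and 10 other inhibitors did not pass. None of the 54 was called between KO and WT in cDC2 or in cDC1.

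Since no member locus was called by subset, the pattern of the locus with the largest difference, Socs2, was compared with other genes over the 8 libraries. The 3 genes more than 1 Mb away whose log2 number of summits correlated best with that of the Socs2 window among 17541 were Lin28b (Pearson r = 0.973), Fcer2a (0.970) and Tmem50b (0.948). With 6 to 8 summits per library at Socs2, the pattern rests on single summits.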

How the data were processed

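The authors deposited 1 list of summits per library, with a score for each summit. Per the submitters' processing notes, Bowtie2, SAMtools, MACS2 and MultiQC were used with GRCm38 (mm10); their versions, the filters and the settings of peak calling are not given in the sources used here. The score is, per the values deposited by the authors, a −log10 p-type value (probably of q, since its lowest value is 1.30 to 1.36). Scores rise with depth, which is unknown, so only ranks within a library were used. The other columns deposited by the authors give the position.

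The 61737 best-scored summits per library were kept. Gene spans came from RefSeq GRCm38.p6 (21883 protein-coding genes before the 3 neighbours were merged). Fits used limma 3.58.1 in R 4.3.3 with 4 group means, two-sided, Benjamini-Hochberg over all genes or sites. For genes, the rounding variance of a whole number was added to the residual variance. Both fits were also run on simulated data with independent draws and, for sites, one common spread. Real sites vary in their spread, so no support is drawn from those runs. Sites that reached to within 500 bp of an annotated start were called start sites. Python 3.11.15 and pandas 2.3.3 were used. Named are all members, the best shared site of each window, all sites called or found on one side alone, the called genes of the pathway list and the genes most like Socs2. Of these, 1 called site and the best shared site of 1 window are not reported here. Members, lists and tests were chosen with earlier results of these data known.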

Additional observations from a re-analysis of the deposited data

Results flagged for a closer look

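At 4 of the 59 member sites with a rank in every library, both KO libraries moved one way from both WT libraries in cDC2 and the opposite way in cDC1; over all sites this held for 1315 of 29645 (4.44%). None of the 4 differences of effects passed (the lowest limma adjusted p was 0.998). They are given as the KO minus WT difference in normal score in cDC2 minus that in cDC1. The Kcnh4 site (chromosome 11, 100757695 to 100757825) showed 1.01, with 0.30 in cDC2 and -0.71 in cDC1. The second Stat5b start (chromosome 11, 100822519 to 100822610) showed 0.735, with ranks of 19575 and 20540 in cDC2 KO, 23373 and 33665 in cDC2 WT, 26093 and 30166 in cDC1 KO, and 19417 and 19110 in cDC1 WT. The Nemp1 start in the Stat6 window (chromosome 10, 127676922 to 127676963) showed -0.48, with -0.31 in cDC2 and 0.17 in cDC1. The Mapkapk3 site in the Cish window (chromosome 9, 107280268 to 107280707) showed 0.223, with 0.08 in cDC2 and -0.15 in cDC1.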

How the results depend on the processing

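With Stat5b, Stat5a and Stat3 as 1 locus, the count of 0 called member loci held in all 4 comparisons under every alternative run, as did the count of 0 member sites called by genotype; with the 3 apart and nearest gene only, Stat3 was called between subsets (adjusted p = 0.0446). The sign of the locus differences between subsets was not stable, and the cause was not tested. With all deposited summits it turned to -0.165 (Stat4), -0.118 (Stat6), -0.265 (Socs1) and -0.15 (Socs2); with the 30868 best summits per list to -0.191 (Stat4), -0.215 (Socs1), -0.396 (Socs2) and, for the marker Clec9a, -0.558; with nearest gene only to 0.0314 (Jak2) and -0.306 (Stat6); with a window of 10 kb to -0.0993 (Stat6) and -0.127 (Cish). Without 1 library, the differences ran from -0.19 to 0.00573 (Jak2), -0.113 to 0.0322 (Stat5b-Stat5a-Stat3), -0.104 to 0.172 (Stat4), -0.0305 to 0.199 (Stat6) and -0.0845 to 0.0267 (Socs3).

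The 9 member sites called by rank became 3 to 8 without 1 library, where fewer libraries enter the fit, and 6 to 9 under the other alternatives. Rank percentiles in place of normal scores called 7, of which 6 were among the 9; Nab2 (adjusted p = 0.0769) and Clec16a (0.0786) were among those lost. Il15ra was also lost in a window of 10 kb (0.0945), and Il15ra (0.136), Il2ra (0.226) and Gbp2 (0.128) with the 30868 best summits.

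Presence on one side alone depended on list length and on single libraries. With all deposited summits, 8 sites were found in cDC1 alone, 10 in KO alone in cDC2, 7 in KO alone in cDC1 and 1 in WT alone in cDC1. With the 30868 best summits, 2 were found in cDC2 alone, 2 in WT alone in cDC2 and 1 in WT alone in cDC1. None of those found with the 30868 best summits was among the sites described above with the same pattern. With all deposited summits, 4 of the 5 sites described in cDC2 alone and 2 of the 3 in cDC1 alone kept their pattern. All 3 described in KO alone in cDC2 kept it too. In cDC1, 0 of the 2 in KO alone and 0 of the 2 in WT alone did. Without 1 library, the counts were 3 to 7 (cDC1 alone), 7 to 15 (KO in cDC2), 4 to 14 (WT in cDC2), 6 to 10 (KO in cDC1) and 8 to 12 (WT in cDC1); with 1 library on a side, presence is easier to meet.

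The replicate numbers were not shown to pair libraries: deviations from the group means of same-numbered libraries correlated at 0.00394 to 0.0645. With the replicate number as a block, 0 loci and 7 sites were called, Nab2 (0.0560) and Clec16a (0.0531) being lost, and 2460 genes in place of 2086. Without read counts, an uncalled summit cannot be told from low depth.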
